A study of Mus musculus with 19 samples.

Results

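The genes described here are the transcriptional coactivators YAP and TAZ, their DNA-binding partner TEAD1, 3 of their best known target genes and 4 of their regulators, in the suprarenal abdominal aorta (SRA) of mice infused with angiotensin II (Ang II) for 24 h. They were chosen by name: Yap1, Wwtr1 (which encodes TAZ), Tead1, Ccn1, Ccn2, Ankrd1, Lats2, Ajuba, Amotl1 and Amotl2. All 10 were found among the 20408 genes of the table, and all 10 passed the filter on low values. Bulk RNA-Seq covered 19 male ApoE-/- mice of C57BL6 background on a chow diet, all of which carried SMA-CreERT2, a tamoxifen-inducible Cre recombinase under the Acta2 promoter, and were started on tamoxifen at 8 weeks of age. Mice labelled KO (IKKβ-/-) also carried Ikkb Flox/Flox, which removes the inflammatory kinase IKKβ from cells that use the Acta2 promoter, and the mice labelled wild-type (IKKβ+/+) were littermates without the floxed allele. Osmotic pumps under the skin delivered saline to 5 IKKβ+/+ and 4 IKKβ-/- mice and Ang II to 5 IKKβ+/+ and 5 IKKβ-/- mice, at a dose that the labels give as 500 to 1000 ng/min/kg and the methods as 1000 ng/min/kg. The study set these groups against each other to ask how Ang II acts on the aortic wall early on and which part of this depends on IKKβ in vascular smooth muscle cells (VSMCs).

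In the Hippo pathway, the kinases LATS1 and LATS2 phosphorylate YAP and TAZ, which are then held in the cytoplasm and degraded. When cells are stretched, spread or contract their actin fibres, YAP and TAZ enter the nucleus and bind TEAD factors on target genes. In the vessel wall these targets include matricellular proteins that are secreted by stretched or injured VSMCs. Because this control acts on the protein, the mRNA of Yap1 or Wwtr1 does not report its activity, which is usually read from the mRNA of targets such as Ccn1, Ccn2 and Ankrd1.

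The depth was 11382573 to 19906694 reads on genes per mouse, and all values are normalized counts, that is, reads divided by the size factor of the mouse. Ikbkb, the deleted gene, was 23.8% lower in IKKβ-/- mice (533.3 ± 78.9, SD, n = 9) than in IKKβ+/+ mice (699.7 ± 66.8, SD, n = 10; two-sided exact permutation p = 0.000173), and 8 of the 9 lay below every IKKβ+/+ mouse. The smooth muscle markers were all present, with Acta2 between 113336 and 301107 and Myh11 between 61000 and 167445 normalized counts. The mitochondrial transcript mt-Co1 took from 1.817% to 11.738% of the normalized counts, with X2385 (10.269%, IKKβ-/- Ang II) and X2406 (11.738%, IKKβ-/- saline) above all other mice. This followed genotype: IKKβ+/+ mice reached at most 3.907% (X2356). Of the IKKβ-/- mice, only X2383 (2.36%) and X2409 (2.83%) lay within the IKKβ+/+ range, and the rest had 4.776% or more. The part of this in the values of the 10 genes was not tested. The mouse numbers of a group run together and no source names a batch, so batch and group cannot be told apart. In a bulk sample, fewer cells of a type and less RNA per cell cannot be told apart.

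TEAD factors bind DNA at a short motif, which lies near the starts of most of these genes. It was searched as GGAATG on either strand (CATTCC on the other) in RefSeq promoter windows of GRCm38.p6, from 250 bases before to 50 bases after each start. Of the 10 genes, 8 had a window, Ccn2 and Tead1 not among them. The motif lay in 8 of their 10 windows (80.0%) and in 4817 of all 32851 windows (14.7%). The windows of Wwtr1 overlap and hold the same site, which counts in each. By gene the motif was found in 7 of the 8, all except Amotl1, and in Lats2 it lay just after the start. A match is a description of the letters and not of binding, and genes known as TEAD targets were among those chosen. A CArG box, the motif of serum response factor, was in the window of 0 of the 8 genes and of 1.63% of all windows.

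The 250 bases before the starts of Ccn1 and Ankrd1 are shown because these genes moved most among those with a window. The capitals mark the TEAD motif, which begins 103 bases before the start of Ccn1 and 210 and 123 bases before the start of Ankrd1. These are RefSeq starts, and the gene span given below for Ankrd1, from the deposited annotation, reaches past the stretch shown. Both sequences are on the minus strand, read 5′ to 3′ toward the gene (chr3:145649986-145650235 and chr19:36119845-36120094).
Ccn1: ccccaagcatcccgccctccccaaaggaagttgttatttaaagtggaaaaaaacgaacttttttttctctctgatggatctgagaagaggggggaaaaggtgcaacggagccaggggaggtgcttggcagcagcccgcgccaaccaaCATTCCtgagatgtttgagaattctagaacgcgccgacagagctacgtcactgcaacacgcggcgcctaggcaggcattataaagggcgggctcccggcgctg
Ankrd1: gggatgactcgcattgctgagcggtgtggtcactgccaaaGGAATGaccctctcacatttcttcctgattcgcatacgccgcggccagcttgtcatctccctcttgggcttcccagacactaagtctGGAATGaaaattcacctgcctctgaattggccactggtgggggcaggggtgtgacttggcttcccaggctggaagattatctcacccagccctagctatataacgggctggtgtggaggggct

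The same motif stood before the RefSeq starts of both coactivator genes, of Ajuba and of Amotl2, whose start lies inside its deposited gene span. It is shown with 12 bases on either side for Yap1 (chr9:8004720-8004749, minus strand), Wwtr1 (chr3:57576029-57576058, minus strand), Amotl2 (chr9:102717727-102717756, plus strand) and Ajuba (chr14:54577808-54577837, minus strand, the nearer to the start of a pair).
Yap1: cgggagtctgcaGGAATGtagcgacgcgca
Wwtr1: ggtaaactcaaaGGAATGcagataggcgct
Amotl2: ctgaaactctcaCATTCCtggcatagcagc
Ajuba: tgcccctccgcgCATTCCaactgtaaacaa

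Levels were compared between genes per kilobase of exon. Ccn2 was the highest of the 10, at a mean of 21624 normalized counts per kilobase over the 19 mice, and it ranked between 7 and 53 among all genes of a mouse by normalized count. Ccn1 followed at 6050 per kilobase, then Wwtr1 at 587.2, Amotl2 at 226.6, Ankrd1 at 216, Yap1 at 210.5, Amotl1 at 199.4, Lats2 at 164.3, Tead1 at 128.9 and Ajuba at 64.59. The mRNA of the secreted targets Ccn2 and Ccn1 was thus far more abundant than that of Wwtr1, Yap1 and Tead1.

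The 10 genes fell apart by how much mice of the same group differed. Within groups the SD of the log2 value was 1.02 for Ccn1, 0.852 for Ankrd1 and 0.709 for Ccn2, against a median of 0.296 over all genes tested. Of all genes tested, 92.2% had a lower SD than Ccn1, 88.4% than Ankrd1 and 83.5% than Ccn2. By contrast, Amotl1 (0.147) and Yap1 (0.16) were steadier than most genes, with 8.53% and 12.1% of genes below them. From the lowest to the highest mouse, Ccn1 spanned 18.82-fold, Ankrd1 9.248-fold and Ccn2 8.38-fold, while Yap1 spanned 1.783-fold.

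Ccn1 (formerly Cyr61) encodes a secreted matricellular protein that binds integrins and is induced rapidly by stretch and growth factors. The gene lies on chromosome 3 of GRCm38, from 145646976 to 145649981 on the minus strand. The saline-infused IKKβ+/+ mice had 2750, 6277, 7352, 9012 and 12538 normalized counts, and the Ang II-treated IKKβ+/+ mice had 2468, 5209, 8638, 12302 and 36413. These groups overlapped along nearly their whole range, and X2350 alone reached 36413. The saline-infused IKKβ-/- mice had 10242, 16196, 40248 and 43346, and the Ang II-treated IKKβ-/- mice had 2303, 2868, 3528, 3584 and 6794. All 5 Ang II-treated IKKβ-/- mice therefore lay below all 4 saline-infused ones, and the saline-infused IKKβ-/- group held the highest mouse of the series.

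Ccn2 (formerly Ctgf) encodes a related matricellular protein that is linked to fibrosis. It lies on chromosome 10, from 24595442 to 24598683 on the plus strand. The saline-infused IKKβ+/+ mice had 24150, 34453, 38662, 44369 and 61053 normalized counts, and the Ang II-treated IKKβ+/+ mice had 37336, 54868, 78618, 116149 and 186061. Of the Ang II-treated mice, 3 of 5 lay above every saline-infused mouse of that genotype, and the other two lay among them. The saline-infused IKKβ-/- mice had 28721, 80907, 95175 and 115827, and the Ang II-treated IKKβ-/- mice had 22204, 30858, 33345, 38172 and 54537. Here the order was turned round, with 3 of the 4 saline-infused mice above every Ang II-treated mouse and the fourth, X2406, among them.

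Ankrd1 encodes an ankyrin repeat protein of the sarcomere and nucleus (CARP) that responds to mechanical load in muscle. It lies on chromosome 19, from 36111961 to 36120099 on the minus strand. The saline-infused IKKβ+/+ mice had 208.8, 266.2, 336.1, 481.1 and 741 normalized counts, and the Ang II-treated IKKβ+/+ mice had 335.7, 426.4, 812.3, 1319 and 1931. The saline-infused IKKβ-/- mice had 252.2, 763.4, 1046 and 1301, and the Ang II-treated IKKβ-/- mice had 213.4, 231.8, 295.8, 383.8 and 496.3. The mice stood much as they did for Ccn2: 3 of 5 Ang II-treated IKKβ+/+ mice were above their saline-infused controls, and X2406 was the only saline-infused IKKβ-/- mouse within the range of the Ang II-treated ones.

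**Figure D1:**
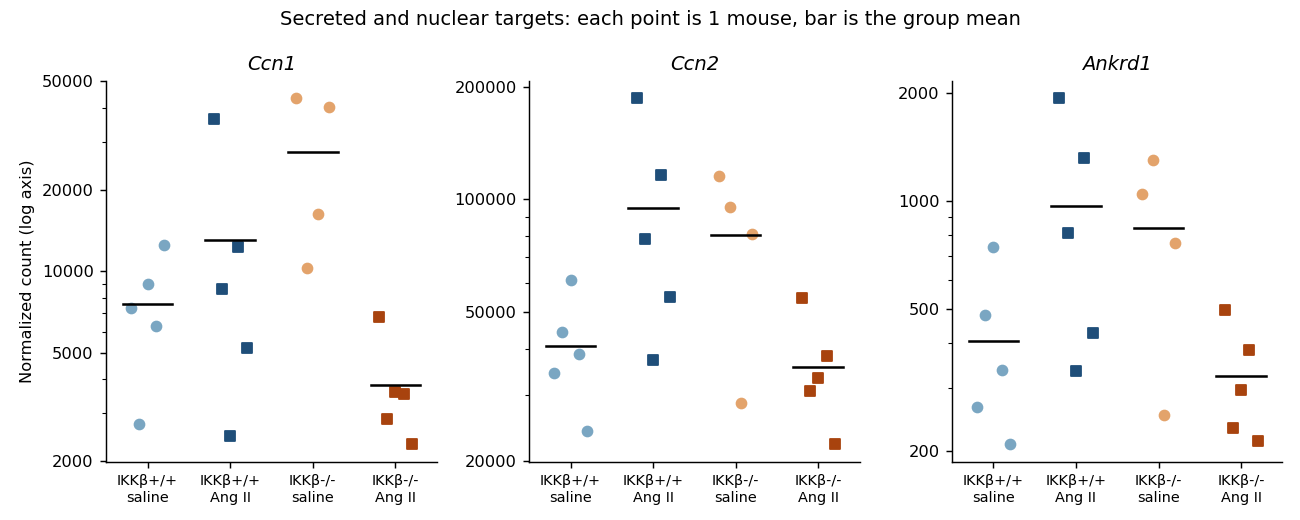
Normalized counts (log axis) of Ccn1, Ccn2 and Ankrd1 in each of the 19 mice, by group, where a point is 1 mouse and the black bar is the arithmetic mean of the group. All 5 Ang II-treated IKKβ-/- mice lie below all 4 saline-infused IKKβ-/- mice for Ccn1, while the groups overlap for Ccn2 and Ankrd1.

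By group mean, the order for Ccn1 was saline-infused IKKβ-/- mice (27508 ± 16726, SD, n = 4), Ang II-treated IKKβ+/+ mice (13006 ± 13595, n = 5), saline-infused IKKβ+/+ mice (7586 ± 3595, n = 5) and Ang II-treated IKKβ-/- mice (3815 ± 1746, n = 5). For Ccn2 it was Ang II-treated IKKβ+/+ (94606 ± 59039), saline-infused IKKβ-/- (80158 ± 37167), saline-infused IKKβ+/+ (40537 ± 13644) and Ang II-treated IKKβ-/- mice (35823 ± 11958), with the same n. For Ankrd1 the order was that of Ccn2, with 965 ± 664.9, 840.7 ± 449.6, 406.7 ± 212.8 and 324.2 ± 117. Neighbours in this order differed by less than the larger of their SDs, except the last pair for Ccn1, which was not tested, and the middle pair for Ccn2, which limma did not call.

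Each gene was then compared between groups with limma, in a fit over all 14845 genes tested, and was called if its fold change exceeded 1.2 with an adjusted p below 0.1. Fold changes are on the scale of log2(normalized count + 1). In IKKβ-/- mice, Ccn1 fell 6.52-fold with Ang II (log2 fold change -2.71 ± 0.60, SE; adjusted p = 0.0189) and was the 1 gene of the 10 that was called, lower, where 5.29% of all genes tested were called (2.69% lower and 2.59% higher). The call held in every setting tried, with a log2 fold change between -3.18 and -2.41 and an adjusted p between 0.00171 and 0.076. Ccn2 (-1.05 ± 0.43, adjusted p = 0.209) and Ankrd1 (-1.21 ± 0.50, adjusted p = 0.21) were not called. Without X2406 both were, at -1.49 (adjusted p = 0.0804) and -1.71 (adjusted p = 0.0835), where 433 of all genes were called, against 785 with it, and without X2385 and X2406, the mice with the most mt-Co1, neither was (adjusted p = 0.123 and 0.114). The groups did not overlap for 2 of the 10 genes, Ccn1 and Yap1, and for 5.29% of all genes.

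In IKKβ+/+ mice, Ang II gave the opposite sign for the same targets, but none of the 10 genes was called by limma, where 8.66% of all genes were (4.33% higher and 4.33% lower). Ccn2 was 2.09-fold higher (log2 1.06 ± 0.41, adjusted p = 0.142), Ankrd1 2.13-fold higher (1.09 ± 0.47, adjusted p = 0.195) and Ccn1 1.28-fold higher (0.36 ± 0.56, adjusted p = 0.772). At an unadjusted p under 0.05 there were 3 of the 10 (Tead1, Ccn2 and Ankrd1) and 3018 of all genes. With edgeR, 1 of the 10 (Ccn2) and 1373 of all genes were called, and with DESeq2 2 (Ccn2 and Tead1) and 1887. The groups overlapped for all 10 genes, and for 8.42% of all genes they did not. X2356 had the least of all 3 targets among the Ang II-treated IKKβ+/+ mice, so leaving it out raises their fold changes. Without X2356, limma called 1918 of all genes, against 1286 with it, and 4 of the 10: Ccn2 (adjusted p = 0.0474), Ankrd1 (adjusted p = 0.0733), Tead1 and Lats2. Without X2350, by contrast, limma called 431 of all genes, and without X2358 451. The sign for Ccn1 rests on X2350, without which its log2 fold change was -0.16.

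The difference between these effects, which asks whether Ang II acted otherwise in IKKβ-/- than in IKKβ+/+ mice, was -3.06 ± 0.82 on the log2 scale for Ccn1 (adjusted p = 0.242), -2.12 ± 0.60 for Ccn2 (adjusted p = 0.247) and -2.31 ± 0.69 for Ankrd1 (adjusted p = 0.269). These were the lowest of the 10, the others lying between -0.25 and 0.15. With limma none of the 10 was called, nor was any of the 14845 genes (0%), while 3 of the 10 and 1654 of all genes had an unadjusted p under 0.05. Of all genes, edgeR called 3, none of them among the 10, and DESeq2 called 279, among them Ccn1 (adjusted p = 0.0243), Ccn2 (adjusted p = 0.0243) and Ankrd1 (adjusted p = 0.043). Thus whether the targets responded otherwise without IKKβ depended on the test. Without X2356, Ccn1 (adjusted p = 0.0707) and Ccn2 (adjusted p = 0.0964) were called with limma too, among 79 of all genes. Without X2350, X2352, X2358 or X2359, the other mice of its group, limma called 0 of all genes.

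**Figure D2:**
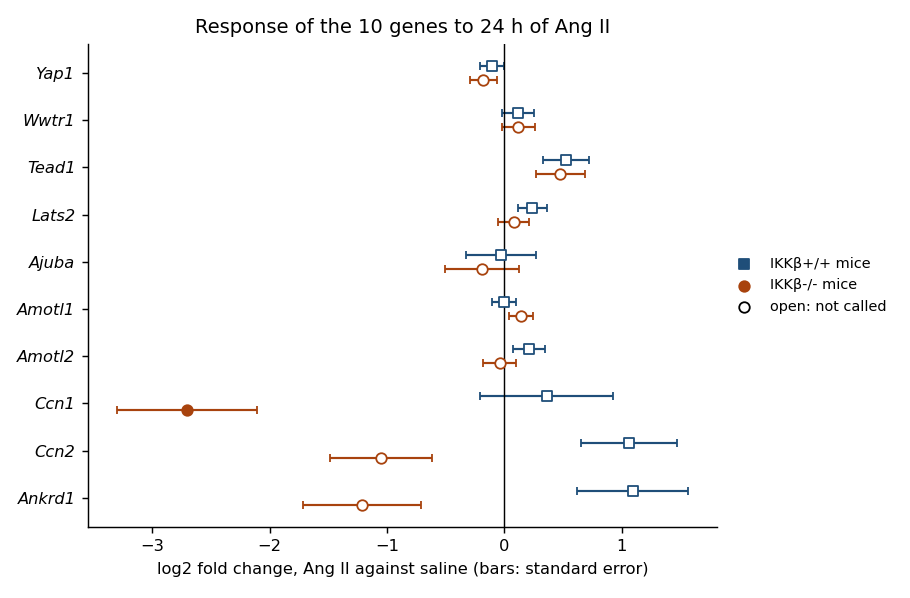
Log2 fold change of the 10 genes with Ang II against saline in IKKβ+/+ mice (squares) and in IKKβ-/- mice (circles), with bars for the standard error of the limma fit and filled symbols for called genes. Ccn1 in IKKβ-/- mice, at -2.71, is the only filled symbol, and Ccn2 and Ankrd1 lie on opposite sides of 0 in the 2 genotypes.

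With saline, the 3 targets were higher in IKKβ-/- than in IKKβ+/+ mice, but no gene of the 10 was called by limma, where 5.47% of all genes were (3.40% higher and 2.07% lower). Ccn1 was 3.42-fold higher (log2 1.77 ± 0.60, adjusted p = 0.113), with 3 of 4 IKKβ-/- mice above every IKKβ+/+ mouse. Ccn2 was 1.84-fold higher (0.88 ± 0.43, adjusted p = 0.276) and Ankrd1 1.95-fold higher (0.96 ± 0.50, adjusted p = 0.299). For Ccn1 this lay close to the threshold: edgeR (adjusted p = 0.1 after rounding, just under the threshold) and DESeq2 (adjusted p = 0.0741) each called it and no other of the 10, and limma called it without X2350 (adjusted p = 0.0645), X2356 (adjusted p = 0.0826) or X2380 (adjusted p = 0.097), mice that enter this comparison only through the shared spread. At an unadjusted p under 0.05 there were 2, Ccn1 and Amotl1, and 2857 of all genes. Here edgeR called 835 of all genes and DESeq2 1437. Without X2406, limma called 24 of all genes here, against 812 with it, and none of the 10. No gene of the 10 had groups apart, and 8.76% of all genes did.

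With Ang II, all 10 genes had a lower mean log2 value in IKKβ-/- than in IKKβ+/+ mice, from -0.08 for Wwtr1 to -1.34 for Ankrd1. Their median was -0.21, and that of all genes tested -0.01. The largest differences were those of Ankrd1 (-1.34 ± 0.47, adjusted p = 0.223), Ccn1 (-1.29 ± 0.56, adjusted p = 0.309) and Ccn2 (-1.24 ± 0.41, adjusted p = 0.212). None of the 10 was called by limma, where 0.128% of all genes were, and none had groups apart, where 1.54% of all genes did. At an unadjusted p under 0.05 there were these 3 and 2118 of all genes. With edgeR, 0 of the 10 and 16 of all genes were called. With DESeq2, 521 of all genes were called and 2 of the 10, Ccn2 (adjusted p = 0.0458) and Ankrd1 (adjusted p = 0.0738). Without X2356, where 553 of all genes were called, against 19 with it, limma called Ccn1 (adjusted p = 0.0981), Ccn2 (adjusted p = 0.0747) and Ankrd1 (adjusted p = 0.0856). Without X2350, X2352 or X2358, limma called 0 of all genes. The comparisons share mice in pairs, so their fold changes are not independent of each other.

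The factors upstream of these targets moved little. Yap1, which encodes the coactivator YAP, had 1655 to 2743 normalized counts in saline-infused and 1810 to 2133 in Ang II-treated IKKβ+/+ mice, and 1901 to 2140 in saline-infused and 1539 to 1887 in Ang II-treated IKKβ-/- mice. Its log2 fold change with Ang II was -0.10 ± 0.11 (SE; adjusted p = 0.623) in IKKβ+/+ mice and -0.18 ± 0.11 (adjusted p = 0.432) in IKKβ-/- mice. The 2 ranges in IKKβ-/- mice did not overlap, yet they nearly met and the fold change was 1.13. Wwtr1, which encodes the paralogous coactivator TAZ, had 2224 to 3655 normalized counts over all mice. Its log2 fold change with Ang II was 0.12 ± 0.14 in IKKβ+/+ (adjusted p = 0.682) and 0.12 ± 0.14 in IKKβ-/- mice (adjusted p = 0.725).

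Tead1, the DNA-binding partner, was higher with Ang II in both genotypes by nearly the same amount, though limma called it in neither and DESeq2 in IKKβ+/+ mice only. It had 1254, 1332, 1359, 1683 and 1776 normalized counts in saline-infused and 1427, 2077, 2192, 2313 and 2777 in Ang II-treated IKKβ+/+ mice. In IKKβ-/- mice it had 977.6, 1311, 1512 and 1615 with saline and 1366, 1631, 1674, 1952 and 3001 with Ang II. In each genotype, 4 of 5 Ang II-treated mice lay above all saline-infused mice. The log2 fold change was 0.52 ± 0.20 (adjusted p = 0.129) in IKKβ+/+ and 0.48 ± 0.21 (adjusted p = 0.232) in IKKβ-/- mice. The effects differed by -0.04 ± 0.28 (adjusted p = 0.961). Unlike Ccn2 and Ankrd1, Tead1 thus had the same sign with Ang II in both genotypes.

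Of the 4 regulators, limma called none in any comparison with all mice in the fit. Lats2, the kinase that phosphorylates YAP and TAZ and is itself a target of theirs, had a log2 fold change with Ang II of 0.24 ± 0.13 in IKKβ+/+ (adjusted p = 0.297) and 0.08 ± 0.13 in IKKβ-/- mice (adjusted p = 0.812). Amotl1 and Amotl2 encode angiomotin-like proteins that hold YAP at cell junctions and on actin. Amotl1 was lower in saline-infused IKKβ-/- mice (1611 to 1915 normalized counts) than in saline-infused IKKβ+/+ mice (1828 to 2597), with a log2 fold change of -0.27 ± 0.10 (adjusted p = 0.173), and the ranges overlapped. Amotl2, also a target, lay between 1052 and 1890 normalized counts over all mice, and its log2 fold change with Ang II was 0.21 ± 0.13 in IKKβ+/+ mice (adjusted p = 0.401). Ajuba, a LIM domain protein that inhibits LATS kinases under tension, was the least abundant of the 10. In Ang II-treated IKKβ-/- mice it had 138.8, 152.5, 162.7, 164.3 and 450.1 normalized counts, so X2380 stood far above the other 4 mice of its group.

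**Figure D3:**
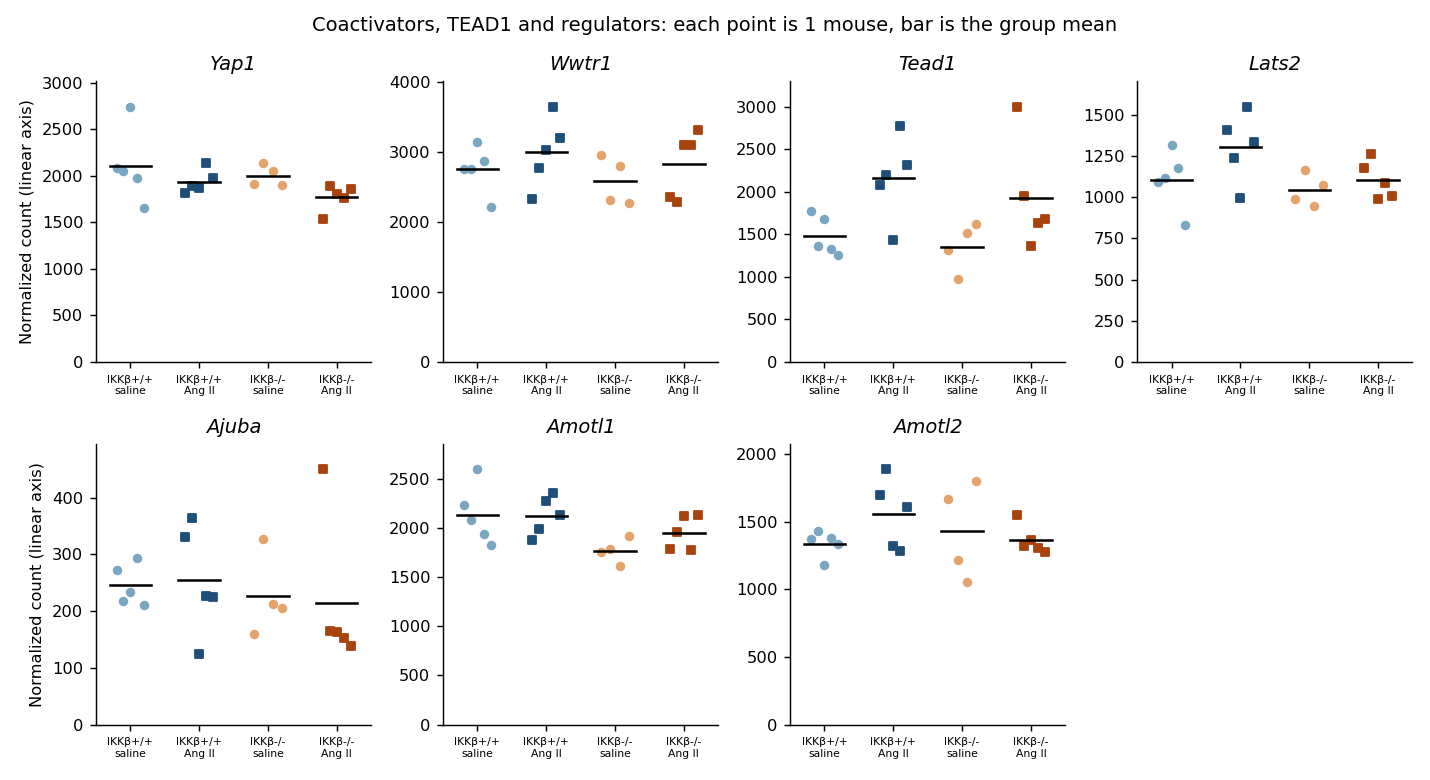
Normalized counts (linear axis from 0) of Yap1, Wwtr1, Tead1, Lats2, Ajuba, Amotl1 and Amotl2 in each of the 19 mice, by group, where a point is 1 mouse and the black bar is the group mean. Tead1 is higher with Ang II in 4 of 5 mice of each genotype, and X2380 stands apart for Ajuba at 450.1.

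Across mice, Ccn2 and Ankrd1 varied together. Over the 19 mice their log2 values had a Pearson r of 0.981 and a Spearman rho of 0.984, given as descriptions without a p because the mice fall into 4 groups. Without X2350 and X2358, the mice farthest from the median of Ccn2, r was 0.97, and after removal of the group means it was 0.971. The 6 mice with the most Ccn2 (X2350, X2352, X2358, X2401, X2403 and X2409) were also the 6 with the most Ankrd1, and they came from Ang II-treated IKKβ+/+ and saline-infused IKKβ-/- mice, 3 from each. Among all genes tested, Ankrd1 was the one whose pattern was most like that of Ccn2. Next to both were Tnfrsf12a (r = 0.966 with Ccn2 and 0.967 with Ankrd1), which encodes the receptor of the cytokine TWEAK, and Hsp25-ps1 (r = 0.959 and 0.965), a pseudogene of a small heat shock protein whose reads may come from its parent gene.

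Ccn1 followed Ccn2 less closely, with r = 0.671 and rho = 0.544 over the 19 mice, 0.608 without X2401 and X2409 and 0.61 after removal of the group means. The mice X2378 and X2406 had much Ccn1 (12538 and 16196 normalized counts) and little Ccn2 (24150 and 28721). Of the 6 mice with the most Ccn1, 4 were among the 6 with the most Ccn2 and Ankrd1. The genes most like Ccn1 were Rhob (r = 0.934), which encodes a small GTPase of actin and endosomes, and the immediate early genes Jun (r = 0.903) and Ier3 (r = 0.9). In contrast, the mRNA of the coactivators followed none of the targets: r lay between 0.066 (Ccn1) and 0.257 (Ankrd1) for Yap1 and between -0.331 (Ccn1) and -0.053 (Ankrd1) for Wwtr1.

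**Figure D4:**
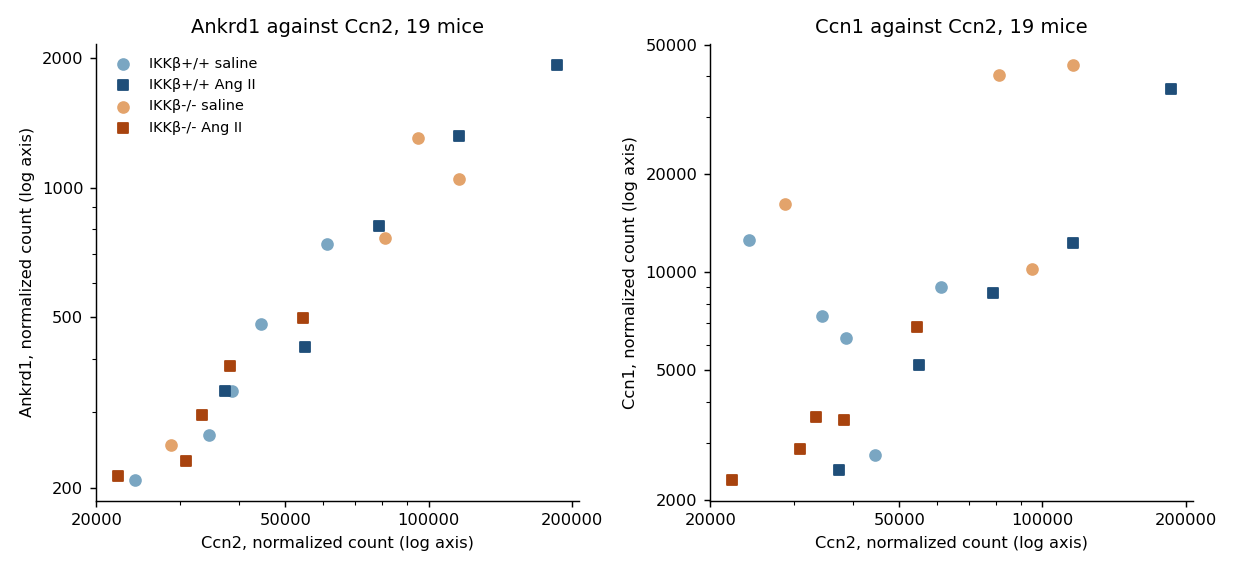
Normalized counts (log axes) of Ankrd1 and of Ccn1 against Ccn2, where a point is 1 of the 19 mice and the colour and shape give its group. Ankrd1 lies along a line with Ccn2 in all 4 groups (r = 0.981), whereas Ccn1 scatters more widely (r = 0.671).

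Because Ccn1 is itself an immediate early gene, the other immediate early genes were set beside it. In IKKβ-/- mice, limma called 7 of 9 lower with Ang II, where 2.69% of all genes were: Atf3 (-4.18 ± 0.76, SE; adjusted p = 0.00793), Fos (-2.91 ± 0.60), Fosb (-2.88 ± 0.77), Jun (-2.45 ± 0.40; adjusted p = 0.00368), Nr4a1 (-2.04 ± 0.46), Egr1 (-1.91 ± 0.40) and Ier3 (-1.71 ± 0.49). None of the 9 (0) had a positive fold change, and their median log2 fold change was -2.04. The fold change of Ccn1 (-2.71) lay within their range. The summed level of the 9 genes was 12804 to 39139 normalized counts in saline-infused and 3868 to 4594 in Ang II-treated IKKβ-/- mice, without overlap. In IKKβ+/+ mice it was 5977 to 26697 with saline and 4895 to 17450 with Ang II. Limma called 1 of the 9 in that genotype, Fos (-1.71 ± 0.56, adjusted p = 0.088), where 4.33% of all genes were called lower. With edgeR, 3 of the 9 and 1373 of all genes were called, and with DESeq2 4 and 1887. The calls of Atf3, Fos, Jun, Nr4a1 and Egr1 in IKKβ-/- mice held whichever mouse was left out, that of Fosb was lost without X2401 or X2409, that of Ier3 without any of 5 mice, and that of Fos in IKKβ+/+ mice without any of 9. With saline, limma called 1 of the 9 between genotypes, where 5.47% of all genes were called. Atf3 was higher in IKKβ-/- than in IKKβ+/+ mice (2.40 ± 0.76, adjusted p = 0.0971), a call lost when any of 14 mice was left out, X2406 among them. These genes encode short-lived transcription factors and stress proteins that are induced quickly by many stimuli, and their part in the fall of Ccn1 was not tested.

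**Figure D5:**
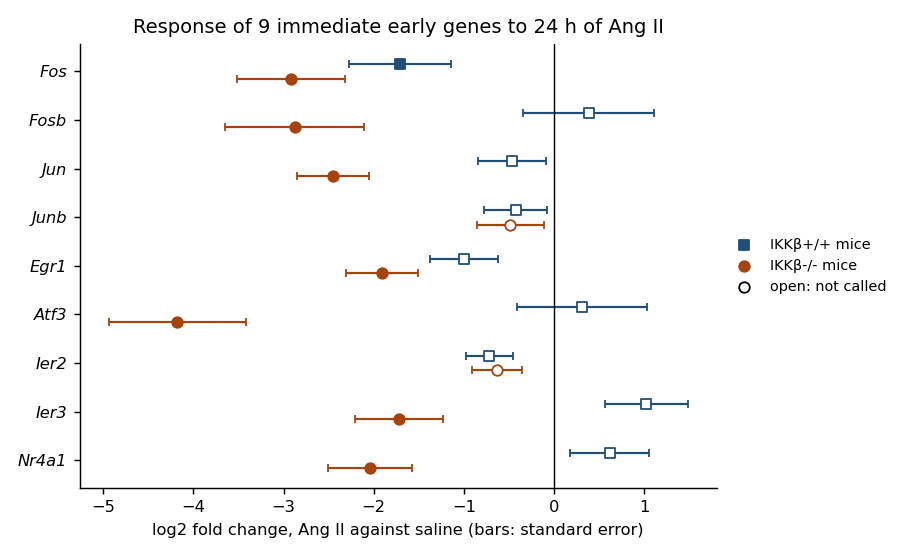
Log2 fold change of 9 immediate early genes with Ang II against saline in IKKβ+/+ mice (squares) and in IKKβ-/- mice (circles), with bars for the standard error and filled symbols for called genes. Among IKKβ-/- mice limma called 7 genes lower, from -1.71 to -4.18, and among IKKβ+/+ mice it called Fos.

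Markers of fat moved the other way in the same comparison. Of 6 adipocyte markers, 5 were tested, and all 5 had a positive fold change with Ang II in IKKβ-/- mice. Limma called 4 of them, where 2.59% of all genes were called higher: Adipoq (log2 4.70 ± 0.95, adjusted p = 0.0129), Cidec, Plin1 and Fabp4. The call of Plin1 was lost without X2401 or X2406, and that of Fabp4 without X2384, X2385, X2401 or X2406. The summed level of the 6 was 1020 to 4241 normalized counts with saline and 2315 to 25079 with Ang II, and no marker was at 0 in all mice of a group. Their part in the fall of Ccn1 was not tested. The summed level of 8 smooth muscle markers was 445261 to 608396 with saline and 318151 to 566891 with Ang II in these mice, and none of the 8 was called there by limma, edgeR or DESeq2, nor passed 0.05 before adjustment. Of the other cell types, limma called there 1 of 7 endothelial markers (Kdr, higher, a call lost when any of 13 mice was left out), and none of 7 fibroblast, 7 macrophage, 7 striated muscle, 3 nerve and adrenal and 1 lymphocyte markers tested (1, 0, 1, 0 and 0 of them before adjustment, and 0 by edgeR and DESeq2), while no mesothelial marker passed the filter. In IKKβ+/+ mice the smooth muscle sum was 344435 to 460995 with saline and 475749 to 661562 with Ang II. All 8 of its genes had a positive fold change there. Limma called 3 of them, Tagln, Cnn1 and Des, where 4.33% of all genes were called higher, and all 3 calls were lost without X2350.

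Markers of other cells moved in the comparisons with IKKβ+/+ mice as well. With Ang II in that genotype, limma called 8.66% of all genes. Of 7 endothelial markers it called 2, Tek (log2 -1.08) and Cldn5 (-1.16), and of 7 fibroblast markers 1, Lum (-1.27), all lower. The call of Tek was lost without X2358 and that of Cldn5 without X2350, X2358 or X2373. Lum kept its call in 11 of 19 leave-outs of 1 mouse. Of 7 striated muscle markers tested, limma called 1, Ckm, higher (mean 29.01 with saline, 228.9 with Ang II), whichever mouse was left out. The striated muscle sum was 165.8 to 298.8 with saline and 351 to 826.9 with Ang II, without overlap. The endothelial sum was 20722 to 35431 normalized counts with saline and 11218 to 22699 with Ang II, and the fibroblast sum 111123 to 156224 and 79694 to 138461. Between the genotypes with saline, limma called 5.47% of all genes. Of 7 macrophage markers it called 2, Cd68 (-0.93) and Adgre1 (-1.02), lower in IKKβ-/- mice, and both calls were lost without X2406. None of the 7 (0) had a positive fold change there. The macrophage sum was 6794 to 8819 normalized counts in saline-infused IKKβ+/+ and 4044 to 5843 in saline-infused IKKβ-/- mice, without overlap. The part of these cells in the values of the 10 genes was not tested.

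In the rest of the Hippo pathway, the log2 fold changes with Ang II of 24 kinases, scaffolds and upstream regulators lay between -0.52 (Amot) and 0.18 in IKKβ+/+ mice and between -0.77 (Fat4) and 0.32 in IKKβ-/- mice. Limma called none of the 24 with Ang II in either genotype (2 at an unadjusted p under 0.05 in each, 0 by edgeR, and 0 and 1 by DESeq2). With saline, limma called 3 of the 24 between genotypes, where 5.47% of all genes were called. The LATS activator Mob1a (-0.37 ± 0.10, adjusted p = 0.0735) and the phosphatase Ptpn14 (-0.51 ± 0.16, adjusted p = 0.0902), which retains YAP in the cytoplasm, were lower in IKKβ-/- mice, and Limd1 (0.48 ± 0.13, adjusted p = 0.0591), a relative of Ajuba, was higher. All 3 calls were lost without X2406, where 24 of all genes were called in this comparison, against 812 with it. Each was also lost without 5 to 8 of the other mice. Of 5 further TEAD and VGLL genes tested, limma called none in any comparison, edgeR none and DESeq2 1, with Ang II in IKKβ+/+ mice. At an unadjusted p under 0.05 there were 2 of the 5 in every comparison except that of the genotypes with Ang II, where there was none.

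Other genes described as YAP/TAZ targets did not move together. Of 20, limma called 3 with Ang II in IKKβ+/+ mice, where 8.66% of all genes were called. The kinase gene Nuak2 (0.93 ± 0.23, adjusted p = 0.0273) and the transglutaminase gene Tgm2 (0.89 ± 0.24, adjusted p = 0.0409) rose, and Nt5e (-0.98 ± 0.29, adjusted p = 0.0616), which encodes the ectoenzyme CD73, fell. The call of Nuak2 held whichever mouse was left out, and those of Tgm2 and Nt5e were lost without X2350, where 431 of all genes were called with Ang II in this genotype, against 1286 with it. In IKKβ-/- mice Igfbp3, a binding protein of insulin-like growth factors, rose (2.51 ± 0.42, adjusted p = 0.00486). It was the 1 gene of the 20 that limma called there, where 5.29% of all genes were called, and its call held whichever mouse was left out. There edgeR and DESeq2 each called 2 of the 20, and 722 and 1164 of all genes. The median log2 fold change of the 20 was 0.00 in IKKβ+/+ and 0.02 in IKKβ-/- mice, near that of all genes (0.01 and 0.00). Of 3 other CCN genes tested, limma called Ccn3 (0.82 ± 0.20, adjusted p = 0.0246) and Ccn5 (0.69 ± 0.18, adjusted p = 0.041) higher with Ang II in IKKβ+/+ mice, where 4.33% of all genes were called higher. The call of Ccn5 was lost without X2350. All 3 had positive fold changes in both genotypes, and in IKKβ-/- mice limma called none (0 before adjustment, by edgeR or by DESeq2).

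Serum response factor and its coactivators MRTF also read actin tension and share targets with YAP and TAZ. Of 21 genes of this axis, 15 had a positive fold change with Ang II in IKKβ+/+ mice. Limma called 4 of the 21 higher and 1 lower, where 8.66% of all genes were called. Cnn1 (0.82 ± 0.21, adjusted p = 0.0303), the tropomyosin gene Tpm4 (0.72 ± 0.19, adjusted p = 0.0362) and Tagln (0.67 ± 0.20, adjusted p = 0.0653) rose, and the coactivator gene Mrtfb (-0.47 ± 0.14, adjusted p = 0.0574) fell. Cnn1 and Tagln are also among the smooth muscle markers above. Without X2350 none of the 5 was called. Among IKKβ-/- mice limma called none (3 before adjustment, 0 by edgeR and 0 by DESeq2), with a median log2 fold change of -0.19 against 0.24 in IKKβ+/+ mice. For the contrast of the 2 responses the median was -0.47 and limma called none (8 at an unadjusted p under 0.05, 0 by edgeR and 2 by DESeq2). Of all genes, 1654 had an unadjusted p under 0.05 there, edgeR called 3 and DESeq2 279.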

How the data were processed

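RNA of the suprarenal aorta was sequenced from stranded poly(A) libraries as single reads. The authors used Trimmomatic 0.35 for trimming and STAR 2.7.1a for alignment to GRCm38 with Gencode annotation, and DESeq2 1.30.1 for normalization of the counts. The deposited signal values are these normalized counts, and all (100%) were whole multiples of 1 read within 0.01, so that reads could be recovered. Groups follow the sample labels, and samples of a group differed by more than sampling noise (36 pairs). A gene was tested where 4 or more mice reached 10 normalized counts (14845; 5563 left out). Log2 values with a pseudocount of 1 were compared with limma 3.58.1 (lmFit, eBayes with trend, R 4.3.3) over all 19 mice, two-sided, with Benjamini-Hochberg adjustment over all genes tested and the thresholds of the study. A pseudocount and few reads pull fold changes toward 0. The alternatives used edgeR 4.0.16, DESeq2 1.42.0, other filters, scalings, weights and thresholds, and left out each mouse. Scripts were tested on simulated data. Exon lengths are from Gencode M21.

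All 10 members, the called genes of each list (at most 4 by adjusted p), the marker genes and the 3 genes nearest to each target by Pearson r are named. The members and lists were chosen with earlier results of these data known. Nothing states that the mice were housed or sampled apart, so p-values measure the spread between these mice.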

Additional observations from a re-analysis of the deposited data

Results flagged for a closer look

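In 3 of 40 sets (10 genes in 4 groups), 1 mouse stood apart from the others of its group. This is near the rate that chance gives, about 1 in 20. The gaps below are on normalized counts, not on their logarithm. Ccn1 was 36413 normalized counts in X2350, an Ang II-treated IKKβ+/+ mouse, against 2468 to 12302 in the other 4, and the gap was 0.71 of the whole range. Ccn1 was 6794 normalized counts in X2380, an Ang II-treated IKKβ-/- mouse, against 2303 to 3584 in the others (0.715 of the range). Ajuba was 450 normalized counts in the same mouse, against 138.8 to 164.3 in the others (0.918 of the range). X2380 also had the most Tead1 (3001) and the least Yap1 (1539) of all 19 mice.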

How the results depend on the processing

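No paired analysis was possible because the groups share no replicate numbers. The fall of Ccn1 with Ang II in IKKβ-/- mice kept its direction and its call in all 29 alternatives, and that of Ikbkb in all 20. No call of the 3 targets was lost, and 1 value turned its sign: Ccn1 in IKKβ+/+ mice, with a log2 fold change of -0.158 without X2350 and up to 0.813 without X2356, where it was not called in any alternative. The counts called among the 10 genes moved upward. So did those among all genes in several of these settings. With Ang II in IKKβ+/+ mice they went from 1286 to 2074 with the weights, 1887 by DESeq2 and 1918 without X2356. For the difference they went from 0 to 279 by DESeq2 and 76 with the weights. Between genotypes they went with saline from 812 to 1902 with the weights, and with Ang II from 19 to 521 by DESeq2. Without X2406, by contrast, those in IKKβ-/- mice went from 785 to 433 and those between genotypes with saline from 812 to 24. With Ang II in IKKβ+/+ mice, 1 was called with only the groups compared, 3 with array quality weights, 1 by edgeR, 2 by DESeq2, and 0 to 4 when 1 mouse was left out (4 without X2356). In IKKβ-/- mice, 3 were called with the weights and 1 to 3 with 1 mouse left out (3 without X2406). For the difference between the effects, 3 were called with the weights, 3 by DESeq2, and 0 to 2 with 1 mouse left out (2 without X2356). Between genotypes with saline, 1 was called with only the groups compared, 3 with the weights, 1 by edgeR, 1 by DESeq2, and 0 to 1 with 1 mouse left out (1 without X2350, X2356 or X2380). With Ang II, 2 were called by DESeq2 and 0 to 3 with 1 mouse left out (3 without X2356). The cause of these shifts was not tested. A pseudocount of 4, no filter, TMM scaling, a threshold of 0.05 on the adjusted p and one of 1.5 on the fold changed none of these counts, and neither did leaving out X2385 and X2406 together, which was chosen after seeing the data. Ajuba, with 95 to 487 reads per mouse, has the least depth of the 10. With 4 or 5 mice a group and the spread of Ccn1, Ccn2 and Ankrd1 between mice, a missed threshold does not show that levels were alike.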
